A study of Mus musculus with 8 samples.

Results

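The 9 genes described here encode mechanically or osmotically gated cation channels (Piezo1, Piezo2 and Trpv4), the paired transcriptional coactivators Yap1 and Wwtr1 (whose product is called Taz), and the 4 Tead transcription factors, Tead1 to Tead4. They were taken by symbol from a table of 50462 gene identifiers, and all 9 were found in it and were among the 17760 genes for which the differential expression test gave an adjusted p. In medial knee cartilage, 7 of the 9 genes were called higher at day 42 after joint destabilisation than in naive mice. Their changes ran from 1.71-fold to 3.47-fold, and 7.75% of all genes tested were called higher. The call of Tead4, the scarcest of the 9, was kept in 1 of 8 refits that each left out a library. Piezo2 had the largest difference of the 9 and Wwtr1 was 2.04-fold higher. Piezo1 passed the test at 1.32-fold, below the 1.5-fold used for a call, and Tead2 did not pass it.

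Piezo channels are large membrane proteins that open when the membrane is stretched, and Trpv4 is a calcium-permeable channel that responds to swelling, warmth and lipid mediators. Chondrocytes are known to use these channels to sense compression and osmotic change. Yap1 and Wwtr1 bind no DNA themselves. When the Hippo kinases Lats1 and Lats2 phosphorylate them they are held in the cytoplasm, and on stiff or stretched substrates they enter the nucleus and activate genes through the Tead factors. Their activity is therefore set largely at the protein level, which RNA abundance does not measure.

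The libraries came from cartilage caps of the medial knee of individual wild-type C57Bl/6J male mice, in 2 groups of 4. Naive mice were untreated and were taken at day 0, at 11 weeks of age. DMM mice had the medial meniscus of the left knee destabilised at 11 weeks by cutting its tibial ligament, with isoflurane anaesthesia and buprenorphine as analgesic, and were taken at day 42, at 17 weeks of age. There was no sham-operated group, so surgery, its drugs and 6 further weeks of age cannot be told apart. The comparison asks how cartilage gene expression differs after destabilisation in this model of post-traumatic osteoarthritis.

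Total estimated counts were between 12479443 and 16548002 per library, and counts were scaled by the median-of-ratios method of DESeq2, which gave the normalised counts below. Library naive 2 stood apart in having 16861 genes with at least 10 counts, against 18322 to 19343 in the other 7. The labels name chondrocytes. Of 12 chondrocyte markers all had counts, with Col2a1 between 15101 and 97826 normalised counts, but markers of blood-forming marrow and bone were also abundant. Neutrophil lineage genes accounted for 1.18% ± 0.162 of the counts of a naive library and 0.721% ± 0.234 of a DMM library (SD, n = 4), and osteoblast and osteocyte genes for 1.08% ± 0.184 and 2.83% ± 0.279. In such bulk tissue, more cells of a type and more RNA per cell cannot be told apart.

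A gene was called when its Benjamini-Hochberg adjusted p in the DESeq2 Wald test was 0.05 or less and its change was 1.5-fold or more. Of the 9 genes, 7 were called higher in DMM and 0 lower, where 7.75% of all genes tested were called higher and 5.92% lower. On the adjusted p alone, 8 of the 9 passed, all higher, against 22.6% of all genes in either direction and 11.4% higher. In 8 of the 9, every DMM library lay above every naive library, which was true of 11.9% of all genes tested. With a covariate for neutrophil and erythroid transcripts, 1 of the 7 calls was kept, as given with the cell type lists below. The median log2 fold change was 0.86 over the 9 genes and -0.02 over all genes tested.

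**Figure D1:**
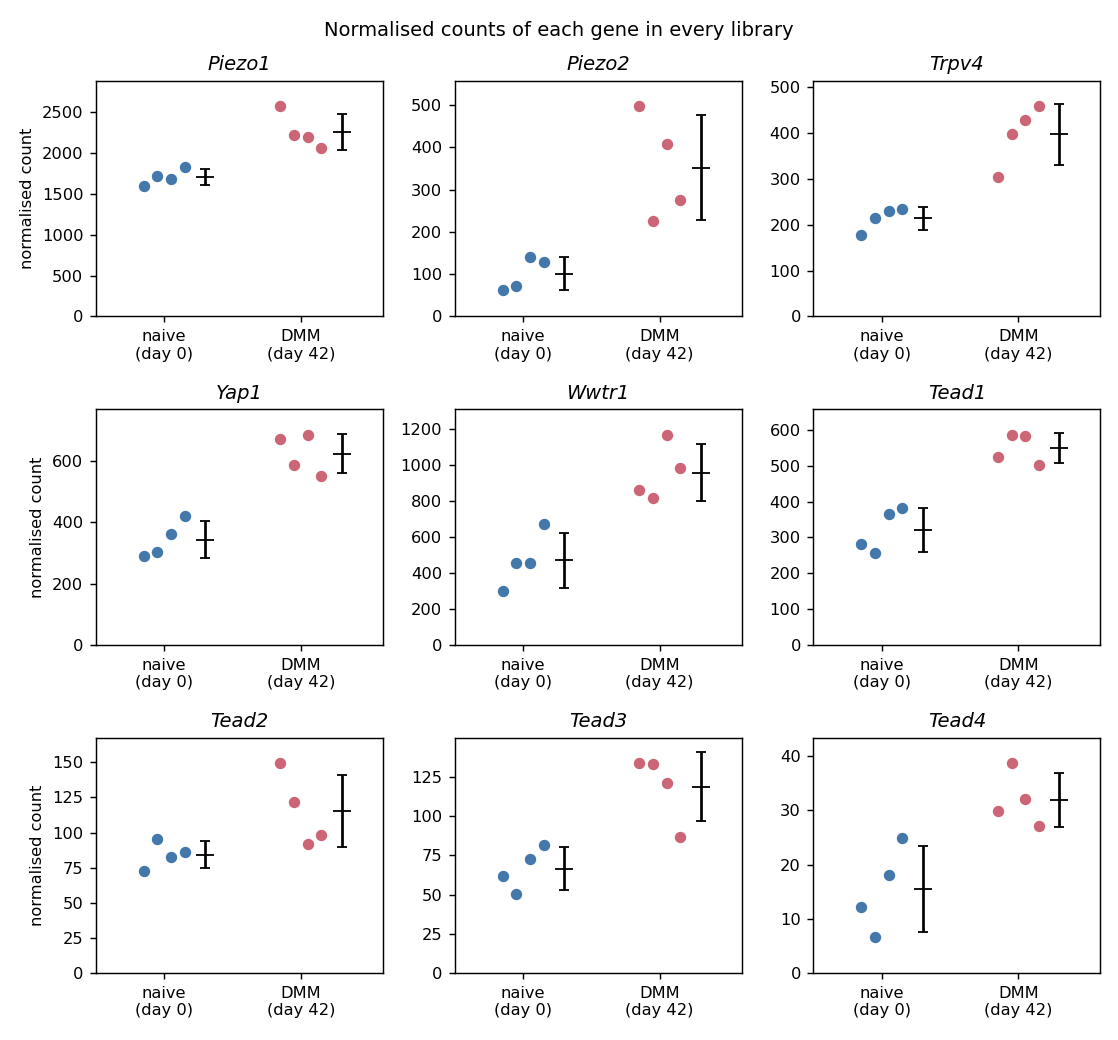
Normalised count (vertical axis, starting at 0, with its own scale for each gene) of the 9 genes in the 4 naive libraries (blue) and the 4 DMM libraries (red), with libraries in replicate order from left to right and the black mark and bar giving the mean and SD. The groups overlap for Tead2 and for no other gene, and Piezo2 shows the widest relative separation, from 63.3 to 141.3 in naive and from 225.7 to 496.8 in DMM.

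Among the channels, Piezo1, a stretch-gated channel of many tissues, was the most abundant of the 9 genes. It had 1594, 1711, 1684 and 1829 normalised counts in naive libraries 1 to 4 and 2568, 2218, 2186 and 2058 in DMM libraries 1 to 4. The groups did not overlap, and the lowest DMM library lay 229 counts above the highest naive one. Its log2 fold change was 0.41 (SE 0.10, adjusted p = 0.00105, DESeq2), a 1.32-fold difference whose 95% interval on the log2 scale ran from 0.20 to 0.61. With a library removed it still passed the adjusted p, in 8 of 8 refits, and reached 1.5-fold in 0 of them. Piezo1 lies on chromosome 8 (122481698 to 122551329, minus strand, GRCm38), where 2441 of its exon bases overlap Ctu2 on the opposite strand. Of its 31-base words, 23.3% also occurred in another gene, so the assignment of reads to it is less certain than for the other 8 genes. Ctu2 itself had 147 ± 33.1 normalised counts in the naive group and 128 ± 23.4 in the DMM group (SD, n = 4; log2 fold change -0.20, adjusted p = 0.578).

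Piezo2, the channel best known for touch and body position sense in sensory neurons, was 3.47-fold higher in DMM. Its normalised counts were 63.3, 71.8, 141.3 and 129.3 in naive libraries 1 to 4 and 496.8, 225.7, 407.5 and 276.2 in DMM libraries 1 to 4. Within each group the highest library was more than 2-fold above the lowest (2.23 in naive and 2.20 in DMM), yet the groups did not overlap. The log2 fold change was 1.80 (SE 0.30, adjusted p = 2.61e-07), and it stayed between 1.58 and 1.998 whichever library was left out. Piezo2 was the single member called when the test was made against a change of 1.5-fold instead of no change (adjusted p = 0.0196). The gene lies on chromosome 18 (63010213 to 63387183, minus strand), and 0.0518% of its words were shared with other genes.

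Because Piezo2 is a gene of sensory neurons, 9 markers of sensory neurons and Schwann cells were read in the same libraries. Their summed normalised counts ran from 96.7 to 142 in naive and from 66.6 to 102.9 in DMM libraries. Scn10a, a sodium channel of pain-sensing neurons, had 0 counts in 5 of the 8 libraries, and Prph and Tac1 had 0 counts in at least 1. The list's share of counts was 0.000800% ± 0.000160 in the naive and 0.000672% ± 0.000119 in the DMM group (SD, n = 4). By a two-sided exact permutation test, p was 0.286, or 0.349 adjusted over 11 marker lists.

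Trpv4, the osmosensitive channel, rose 1.86-fold. It had 177.6, 214.2, 229.0 and 233.6 normalised counts in naive libraries 1 to 4 and 303.5, 397.7, 427.2 and 457.6 in DMM libraries 1 to 4. All DMM values lay above the naive ones, with DMM 1 the lowest of them, although DMM 1 had the highest Piezo1 and Piezo2 counts of its group. The log2 fold change was 0.89 (SE 0.17, adjusted p = 4.55e-06). Trpv4 (chromosome 5, 114622152 to 114658421, minus strand) remained called in 8 of 8 refits with a library removed.

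Both coactivators rose. Yap1 had 289.3, 302.0, 361.7 and 420.7 normalised counts in naive libraries 1 to 4 and 671.7, 588.0, 685.7 and 552.3 in DMM libraries 1 to 4. Its groups lay 132 counts apart, against SDs of 60.4 within the naive and 64.6 within the DMM group. Yap1 thus had a log2 fold change of 0.86 (SE 0.15, adjusted p = 8.67e-07). Wwtr1, its paralogue, had 300.8, 453.7, 458.1 and 673.5 normalised counts in naive libraries 1 to 4 and 864.1, 817.0, 1171 and 984.7 in DMM libraries 1 to 4. Naive 1 was low and naive 4 high, 2.24-fold apart, but no naive library reached the DMM range. For Wwtr1 this was a log2 fold change of 1.03 (SE 0.22, adjusted p = 6.25e-05). Yap1 (chromosome 9, 7931999 to 8004596) and Wwtr1 (chromosome 3, 57455649 to 57575910) both lie on the minus strand, and both kept their call in the 8 refits with a library removed.

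Of the Tead factors, which bring Yap1 and Wwtr1 to DNA, 3 of 4 were called. Tead1 had 283.2, 255.4, 365.0 and 382.1 normalised counts in naive libraries 1 to 4 and 525.8, 586.9, 583.7 and 501.8 in DMM libraries 1 to 4. Its groups were 120 counts apart, with a log2 fold change of 0.77 (SE 0.15, adjusted p = 1.77e-05). Tead3 had 61.6, 50.6, 72.8 and 81.6 normalised counts in naive libraries 1 to 4 and 133.5, 133.3, 121.0 and 86.6 in DMM libraries 1 to 4. DMM 4 stood below the other 3 and only 5.01 counts above the highest naive library. Its log2 fold change was 0.83 (SE 0.23, adjusted p = 0.00277). Tead1 (chromosome 7, 112679318 to 112906807, plus strand) and Tead3 (chromosome 17, 28331671 to 28350817, minus strand) kept their call in the same 8 refits.

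Tead2 differed from its 3 relatives in that its groups overlapped. It had 73.0, 95.8, 82.4 and 86.2 normalised counts in naive libraries 1 to 4 and 149.3, 121.5, 92.2 and 98.4 in DMM libraries 1 to 4. DMM 3 lay below naive 2, and DMM 1 and 2 were higher than the rest. The log2 fold change was 0.46 (SE 0.22, 95% interval 0.03 to 0.88, adjusted p = 0.113), so the interval spans both a very small difference and one of more than 1.5-fold. Whether the fold change of Tead2 differed from those of the other Teads was not tested. Tead2 lies on chromosome 7 (45215753 to 45233644, plus strand), and 13 of its exon bases overlap Cd37 on the opposite strand.

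Tead4 was the scarcest of the 9 genes, with between 5 and 39 estimated counts per library. It had 12.3, 6.65, 18.2 and 24.9 normalised counts in naive libraries 1 to 4 and 29.9, 38.7, 32.1 and 27.1 in DMM libraries 1 to 4. The groups were 2.13 counts apart. The log2 fold change was 1.03 (SE 0.40, 95% interval 0.25 to 1.81, adjusted p = 0.0437), close to the threshold. The call remained without naive 4 (adjusted p = 0.0132). It was lost without naive 1 (0.160), naive 2 (0.156), naive 3 (0.0777), DMM 1 (0.103), DMM 3 (0.0963) or DMM 4 (0.0656), all adjusted p of DESeq2, and without DMM 2 the test gave no adjusted p. With edgeR's quasi-likelihood test the adjusted p was 0.0661. Tead4 lies on chromosome 6 (128224288 to 128300823, minus strand).

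**Figure D2:**
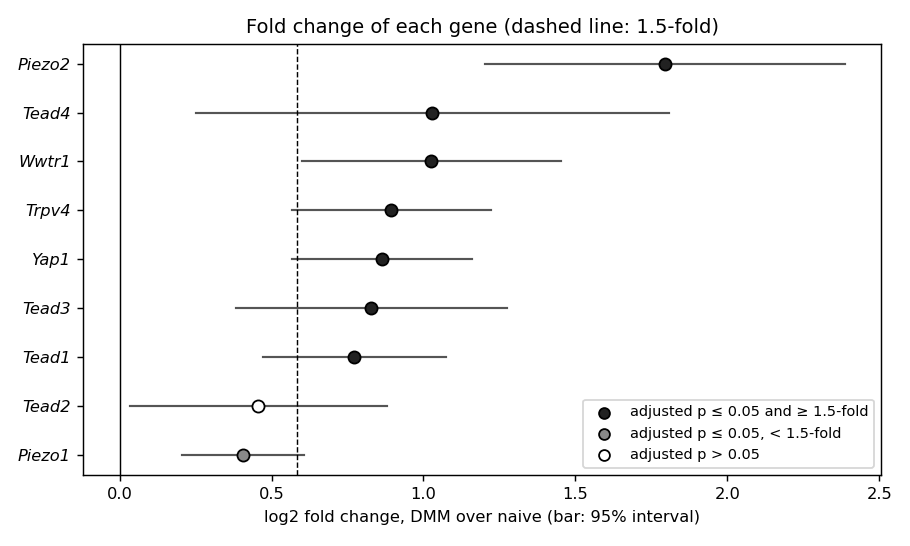
Log2 fold change of DMM over naive (horizontal axis) for each of the 9 genes, with its 95% interval as a bar, a dashed line at 1.5-fold and the fill giving the outcome of the test. Every point lies above 0, Piezo2 is highest at 1.80, and of the called genes Tead4 has the widest interval, from 0.25 to 1.81.

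The individual mice did not contribute evenly. Within the naive group, naive 1 was the lowest library for 6 of the 9 genes and naive 2 for the other 3, while naive 4 was the highest for 7. Within the DMM group, DMM 4 was lowest for 5 genes and DMM 1 highest for 4. The naive libraries nearest the DMM range were thus mostly naive 4, for Piezo1, Trpv4, Yap1, Wwtr1, Tead1, Tead3 and Tead4.

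To compare the genes with each other, normalised counts were divided by the length of the longest coding transcript in kilobases. In naive cartilage the order of these levels was Piezo1 (207 ± 11.8 normalised counts per kilobase, SD, n = 4), Wwtr1 (100.4 ± 32.6), Yap1 (82.3 ± 14.5), Trpv4 (66.2 ± 7.86), Tead1 (32.3 ± 6.19), Tead2 (24.8 ± 2.78), Tead3 (24.0 ± 4.87), Piezo2 (9.46 ± 3.69) and Tead4 (5.05 ± 2.55). Piezo1 lay above every library of Wwtr1. Trpv4 lay above every library of Tead1, and Tead3 above every library of Piezo2. The ranges of the other neighbours in this order overlapped, so Wwtr1 and Yap1, Yap1 and Trpv4, Tead1 and Tead2, Tead2 and Tead3, and Piezo2 and Tead4 were not separated.

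In DMM cartilage the same measure gave 275 ± 26.5 for Piezo1, 204 ± 33.6 for Wwtr1, 150 ± 15.5 for Yap1 and 123 ± 20.6 for Trpv4. Tead1 followed at 55.2 ± 4.26, Tead3 at 42.7 ± 7.97, Tead2 at 34.0 ± 7.63, Piezo2 at 32.8 ± 11.5 and Tead4 at 10.4 ± 1.61 (normalised counts per kilobase, SD, n = 4). The ranges of Yap1 and Trpv4, of Tead3 and Tead2, and of Tead2 and Piezo2 overlapped. Piezo2, which in naive cartilage overlapped Tead4 at the foot of the order, lay above every Tead4 library in DMM cartilage. When all exons of a gene were merged to give its length, the mean of Trpv4 (52.4 in naive) stood above that of Yap1 (37.1). Their naive ranges overlapped, at 43.6 to 57.3 and 31.3 to 45.4. The order changed because the merged exons of Yap1 span 9257 bases and its longest coding transcript 4171. By merged exons the DMM ranges of Piezo1 and Wwtr1 overlapped as well.

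**Figure D3:**
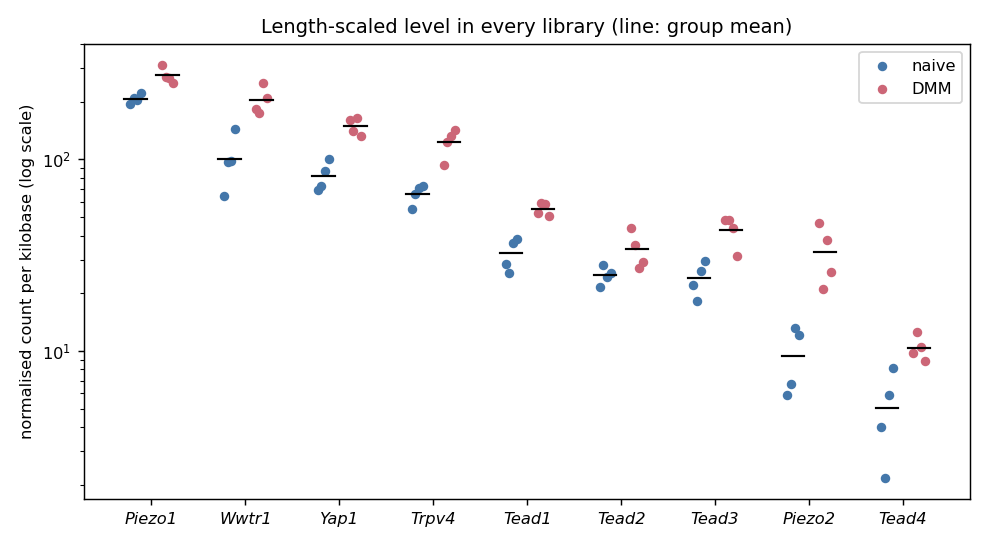
Normalised count per kilobase of the longest coding transcript (vertical log axis) for the 9 genes, ordered by naive mean, with a point for each of the 4 naive (blue) and 4 DMM (red) libraries and a black line at each group mean. Piezo1 is highest in both groups, at 207 in naive and 275 in DMM, and Piezo2 moves from 9.46 to 32.8.

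Shares within a library do not depend on the scaling between libraries. Piezo2 made up 2.95, 3.12, 6.04 and 5.14% of the summed Piezo1 and Piezo2 level in naive libraries 1 to 4 and 12.9, 7.24, 12.5 and 9.33% in DMM libraries 1 to 4. Every DMM share was higher than every naive one, and the means were 4.31% ± 1.52 and 10.5% ± 2.70 (SD, n = 4). This share was chosen after the data were seen and is given as a description. Wwtr1 made up 54.2% ± 4.80 of the summed Yap1 and Wwtr1 level in naive and 57.5% ± 3.85 in DMM libraries, and the groups overlapped.

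Within the Tead family, Tead1 held 37.3% ± 2.02 of the summed length-scaled level in naive and 39.0% ± 3.80 in DMM libraries. Tead2 held 29.3% ± 5.92 and 23.8% ± 3.72, Tead3 27.7% ± 2.17 and 29.9% ± 2.47, and Tead4 5.64% ± 2.14 and 7.31% ± 0.756 (SD, n = 4). The shares of all 4 Teads overlapped between the groups. The summed Tead level was 86.2 ± 13.2 normalised counts per kilobase in naive and 142 ± 16.8 in DMM libraries, and the summed Yap1 and Wwtr1 level was 183 ± 46.2 and 354 ± 42.1. The ratio of the second sum to the first was 2.11 ± 0.296 in naive and 2.52 ± 0.461 in DMM libraries, again with overlapping ranges.

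Tead factors recognise the core GGAATG, so RefSeq promoters on GRCm38.p6 were searched for it on both strands from 250 bases before to 50 after the start site. It occurred in 14.7% of 32851 promoters and in at least 1 promoter of 16.6% of genes. An entry was found for 6 of the 9 genes, and 3 of them (Yap1, Wwtr1 and Tead3) held the core. Of the Yap-Tead target genes described below, 15 had an entry and 7 held it, and the other lists held it in similar numbers, in 9 of 23 Hippo regulators, 7 of 22 other channels and 5 of 14 actin tension genes. An AP-1 site spelled TGANTCA occurred in 7.81% of all promoters, in at least 1 promoter of 8.97% of genes, and in 0 of the 6 genes. Of the 7 target genes with the core, 3 were called higher (Ccn1, Amotl2 and Ptpn14). In the whole target list 10 of 21 tested genes were called higher, and 7.75% of all genes tested were. Axl, Crim1 and Lats2 held the core and were not called, and Ankrd1 got no adjusted p. The stretches around the core are shown for the 3 genes above and for 6 of these 7, leaving out Lats2, where it lay after the start site. They are given 5′ to 3′ on the strand of the gene with the core in capitals, as GGAATG or as its reverse complement CATTCC.
Yap1, chr9:8004705-8004764, minus strand: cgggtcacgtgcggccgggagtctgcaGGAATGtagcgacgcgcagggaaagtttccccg
Wwtr1, chr3:57576014-57576073, minus strand: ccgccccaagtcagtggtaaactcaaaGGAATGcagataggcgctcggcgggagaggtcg
Tead3, chr17:28350955-28351014, minus strand: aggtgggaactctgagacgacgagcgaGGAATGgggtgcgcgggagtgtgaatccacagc
Tead3, second start site, chr17:28350691-28350750, minus strand: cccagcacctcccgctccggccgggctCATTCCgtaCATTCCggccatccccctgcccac
Ccn1, chr3:145650056-145650115, minus strand: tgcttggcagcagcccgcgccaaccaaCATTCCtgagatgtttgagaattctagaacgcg
Amotl2, chr9:102717712-102717771, plus strand: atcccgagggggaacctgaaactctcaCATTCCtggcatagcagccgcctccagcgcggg
Ptpn14, chr1:189728095-189728154, plus strand: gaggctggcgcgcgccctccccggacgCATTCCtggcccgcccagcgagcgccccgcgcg
Axl, chr7:25788934-25788983, minus strand: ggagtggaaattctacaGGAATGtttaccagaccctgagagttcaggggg
Ankrd1, chr19:36120022-36120081, minus strand: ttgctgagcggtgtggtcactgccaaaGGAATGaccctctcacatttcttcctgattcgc
Crim1, chr17:78200142-78200201, plus strand: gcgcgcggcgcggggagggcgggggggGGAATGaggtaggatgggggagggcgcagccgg

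Relative to the start site, the core began at position -141 in Yap1 and at -136 from the first and -170 from the second start site of Wwtr1. It began at -103 in Ccn1, -65 in Amotl2, -146 in Ptpn14, -233 in Axl, -210 in Ankrd1 and -79 in Crim1. A match of these letters is a description of the sequence, and binding was not measured in these samples.

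The Yap-Tead target list held 22 genes that these factors are known to activate, and 21 of them were tested. Of these, 10 were called higher and 1 lower, where 7.75% and 5.92% of all genes tested were. The median log2 fold change was 0.67, against -0.02 over all genes. On the adjusted p alone 11 were higher and 3 lower, against 22.6% of all genes in either direction and 11.4% higher. The lower ones included Asap1 (-0.37, adjusted p = 0.00427) and Dock5 (-0.33, adjusted p = 0.0203), named after their values were seen. With a library left out, the DESeq2 adjusted p of Dock5 ran from 0.0160 to 0.113. Ccn1, a secreted matricellular protein and a standard readout of Yap activity, had 423.0, 372.5, 429.2 and 427.5 normalised counts in naive libraries 1 to 4 and 797.8, 1057, 1250 and 1008 in DMM libraries 1 to 4. Its groups were widely separated, with a log2 fold change of 1.31 (SE 0.15, adjusted p = 1.56e-15). Nt5e, the enzyme CD73 that makes adenosine, rose from 558 ± 105 to 1438 ± 285.5 (SD, n = 4; log2 fold change 1.37, SE 0.18, adjusted p = 3.63e-12). The secreted matrix protein Ccdc80 rose by a log2 fold change of 1.21 and the growth factor Tgfb2 by 1.25. Myof (0.86), F3 (1.21, tissue factor), Arhgef17 (0.67) and Rbms3 (0.61) were also called higher.

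Other target genes were not called. Ccn2, the relative of Ccn1 that is also a standard readout, had 3573, 3516, 4218 and 5617 normalised counts in naive libraries 1 to 4 and 3387, 5645, 5455 and 3921 in DMM libraries 1 to 4. The groups overlapped fully, and the log2 fold change was 0.12 (SE 0.20, adjusted p = 0.736). Axl, a receptor tyrosine kinase, had a log2 fold change of 0.06 (SE 0.15, adjusted p = 0.827) and Lats2 one of 0.15 (SE 0.11, adjusted p = 0.336). Ccn2, Axl and Lats2 were singled out after their values were seen, and 19.7% of the words of Ccn2 and 41.8% of those of Lats2 were shared with other genes. Ankrd1, a target best known in muscle, had at most 2.47 normalised counts in any library and got no adjusted p. Gadd45a, a stress response gene, was called lower (log2 fold change -0.59, SE 0.14, adjusted p = 0.000571), only just past 1.5-fold. Its change fell short of 1.5-fold without naive 1 (-0.55), naive 3 (-0.58), DMM 1 (-0.56), DMM 2 (-0.55) or DMM 4 (-0.53), and 17.0% of its words were shared with an overlapping gene. It also fell short with edgeR (-0.57), limma-voom (-0.58), TMM factors (-0.56) and the total count with (-0.44) or without (-0.57) the most abundant identifier. Rbms3 likewise fell short without naive 1 or naive 2 (0.53 in both).

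The Hippo list held 27 regulators of Yap1 and Wwtr1, all tested. Of these, 8 were called higher and 0 lower, where 7.75% and 5.92% of all genes were, with a median log2 fold change of 0.20. On the adjusted p alone, 12 were higher and 3 lower, where 22.6% of all genes passed in either direction. Frmd6, a membrane-linked scaffold, rose from 543 ± 91.3 to 1146 ± 233 normalised counts (SD, n = 4; log2 fold change 1.08, SE 0.18, adjusted p = 1.03e-07). The giant cadherin Fat4 rose by a log2 fold change of 1.16 and its ligand Dchs1 by 0.87. Amotl1 (0.72) and Amotl2 (0.89), angiomotin proteins that bind Yap1 in the cytoplasm, the phosphatase Ptpn14 (0.79), the scaffold Dlg5 (0.64) and the Lats inhibitor Ajuba (0.84) were also called higher. Amotl2 and Ptpn14, and the kinase Lats2, which was not called, are on the target list as well and were counted in both.

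None of the core kinases was called. Lats1 had a log2 fold change of 0.34 (adjusted p = 0.00584), Stk4 of -0.39 (adjusted p = 0.0215) and its relative Stk3 of 0.13 (adjusted p = 0.611). Stk4 passed the adjusted p in 3 of 8 refits with a library removed, and its groups overlapped. The kinase Taok3 (-0.42) and the Lats cofactor Mob1b (-0.37) passed the adjusted p on the lower side but not 1.5-fold. Nf2, the upstream tumour suppressor, had a log2 fold change of 0.04 (SE 0.10, adjusted p = 0.849). Lats1, Stk3, Stk4, Taok3, Mob1b and Nf2 were named after their values were seen. The call of Dlg5 was lost on fold without naive 2 (0.57) or DMM 2 (0.56). That of Ajuba, which had between 22.9 and 73.1 normalised counts, was lost without naive 1, naive 3, DMM 1, DMM 2 or DMM 3, with adjusted p of 0.113, 0.0731, 0.0802, 0.0767 and 0.0522 in DESeq2.

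Among 25 other channels with mechanical or osmotic gating and partners of Piezo, 22 were tested. Of these, 5 were called higher and 1 lower, where 7.75% and 5.92% of all genes tested were. The median log2 fold change was 0.31. Gja1, the gap junction protein connexin 43, rose from 2317 ± 304 to 4420 ± 388 normalised counts (SD, n = 4; log2 fold change 0.93, SE 0.12, adjusted p = 1.45e-11). The polycystins Pkd1 (log2 fold change 1.01) and Pkd2 (1.03), which form a channel complex of primary cilia, rose together. Panx3, a pannexin of cartilage and bone, had 22.9, 61.2, 33.2 and 31.8 normalised counts in naive libraries 1 to 4 and 94.5, 67.7, 143.2 and 323.1 in DMM libraries 1 to 4. DMM 4 was high and DMM 2 close to naive 2, and the log2 fold change was 2.09 (SE 0.44, adjusted p = 6.90e-05), or 1.47 without DMM 4. Mdfi, one of the MyoD-family inhibitor proteins that bind Piezo channels, was at the fold threshold (0.59, adjusted p = 0.0273) and kept its call in 4 of 8 refits with a library removed. Mdfi fell outside the naming rule and was named after its value was seen. Trpc6, a lipid-gated channel, was the gene called lower (-0.71, SE 0.19, adjusted p = 0.00230), and it fell short of 1.5-fold without naive 2 (-0.57) or with total count scaling (-0.54).

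The list of 15 actin tension and Srf genes, a second route by which mechanical load reaches the nucleus, had a median log2 fold change of -0.22. Of its genes 1 was called higher and 1 lower, near the 7.75% and 5.92% of all genes. With the adjusted p alone, 2 were higher and 5 lower, where 2021 and 1989 of the 17760 genes tested were. Acta2, smooth muscle actin, had 78.3, 110.4, 141.3 and 246.0 normalised counts in naive libraries 1 to 4 and 420.5, 242.9, 731.0 and 291.5 in DMM libraries 1 to 4. The groups overlapped, since naive 4 exceeded DMM 2, and the log2 fold change was 1.55 (SE 0.49, adjusted p = 0.0113), which was lost without naive 2 (adjusted p = 0.0551). Myl9, a myosin light chain, was called lower (-0.74, SE 0.21, adjusted p = 0.00330), but not with scaling by total count (-0.58). The count of 2 called genes was 1 without naive 2 and 4 without DMM 2.

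**Figure D4:**
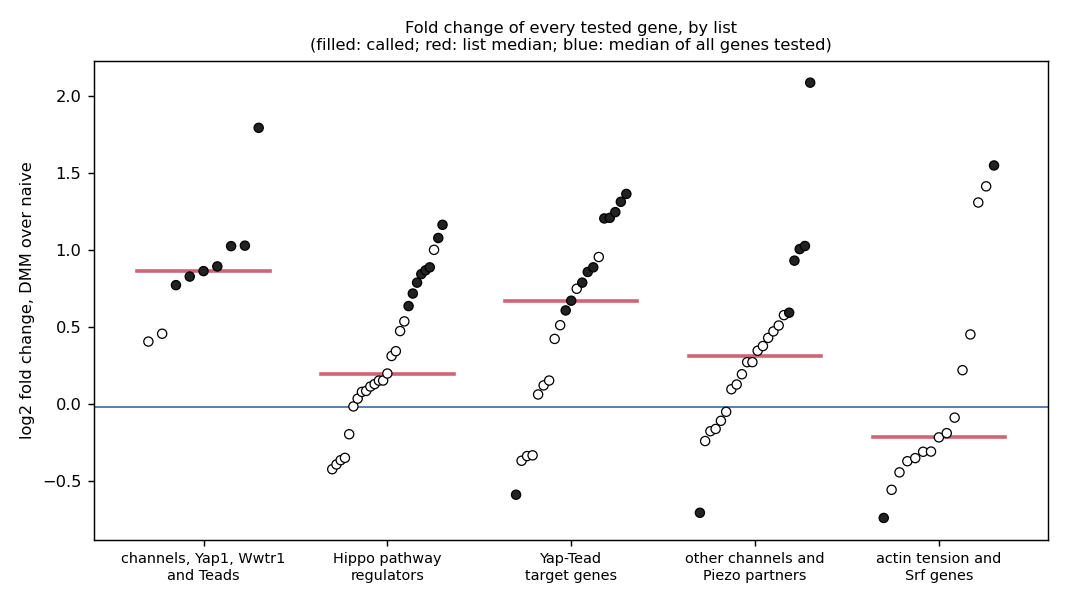
Log2 fold change of DMM over naive (vertical axis) for every tested gene of the 9 channel, Yap and Tead genes and of the 4 pathway lists, sorted within each list, with called genes filled, the list median in red and the median of all genes tested in blue. The medians are 0.86, 0.20, 0.67, 0.31 and -0.22 from left to right, against -0.02 for all genes.

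The shares of cell type markers were compared in the same libraries. Chondrocyte genes accounted for 0.388% ± 0.0654 of the counts of a naive library and 0.967% ± 0.308 of a DMM library (SD, n = 4). The exact permutation p was 0.0286, the smallest that 4 libraries against 4 allow, and 0.105 adjusted over the 11 lists. Of its 12 genes 5 were called higher and 0 lower, where 7.75% and 5.92% of all genes tested were. The summed normalised counts of the 12 genes ran from 42922 to 73235 in naive and from 93951 to 175063 in DMM libraries. The osteoblast and osteocyte list (9 of 10 called higher, sums of 129842 to 220658 and 345211 to 428056) and the neutrophil lineage list (14 of 15 called lower, sums of 136634 to 205388 and 60268 to 123344) gave the same p. Of the erythroid list, 9 of 10 genes were called lower, with sums of 155122 to 303382 in naive and 79946 to 171621 in DMM libraries (exact p = 0.0857, adjusted 0.157).

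Cell types known to express Piezo1, Yap1 and the Teads were also represented. Of 9 endothelial genes 4 were called higher and 1 lower, where 7.75% and 5.92% of all genes tested were. The endothelial sums were 6377 to 7373 normalised counts in naive and 6708 to 7668 in DMM libraries (exact permutation test on the share, p = 0.0571, adjusted 0.126). Of 7 synovial fibroblast genes 4 were called higher and 0 lower. With the adjusted p alone, 4 were higher and 1 lower, where 2021 and 1989 of the 17760 genes tested were. The synovial sums were 2152 to 3667 in naive and 3298 to 6310 in DMM libraries (exact p = 0.0571, adjusted 0.126). No gene of these 6 lists was at 0 in any library. When the combined neutrophil and erythroid signal entered the fit as a covariate, it left a log2 fold change of 0.18 for Piezo1, 1.29 for Piezo2, 1.15 for Trpv4, 0.63 for Yap1 and 1.02 for Wwtr1. For Tead1 it left 0.53, for Tead2 -0.06, for Tead3 0.29 and for Tead4 0.28. Trpv4 alone stayed called (adjusted p = 0.0431, against 0.396 to 0.996 for the other 6 called genes), in a fit whose covariate was higher in every naive than in every DMM library. The part of the chondrocyte, bone, endothelial and synovial lists in these results was not tested.

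None of the 11 lists passed after adjustment, and the remaining ones had larger p. A list at the smallest possible p of 0.0286 could pass only if most of the 11 lists also had that p. The adjusted test therefore could not decide whether the shares differed. The chondrocyte, neutrophil lineage, and osteoblast and osteocyte shares did not overlap between the groups. B cell genes accounted for 0.0190% ± 0.00427 of the counts of a naive library and 0.0281% ± 0.0135 of a DMM library (SD, n = 4, exact permutation p = 0.343, adjusted 0.377). The values were 0.0973% ± 0.0169 and 0.134% ± 0.0326 for osteoclasts (exact p = 0.143, adjusted 0.224), and 0.0508% ± 0.00172 and 0.0546% ± 0.00493 for macrophages (exact p = 0.200, adjusted 0.275). Skeletal muscle genes held 0.00353% ± 0.00286 and 0.00910% ± 0.0122 (exact p = 0.543, adjusted 0.543).

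**Figure D5:**
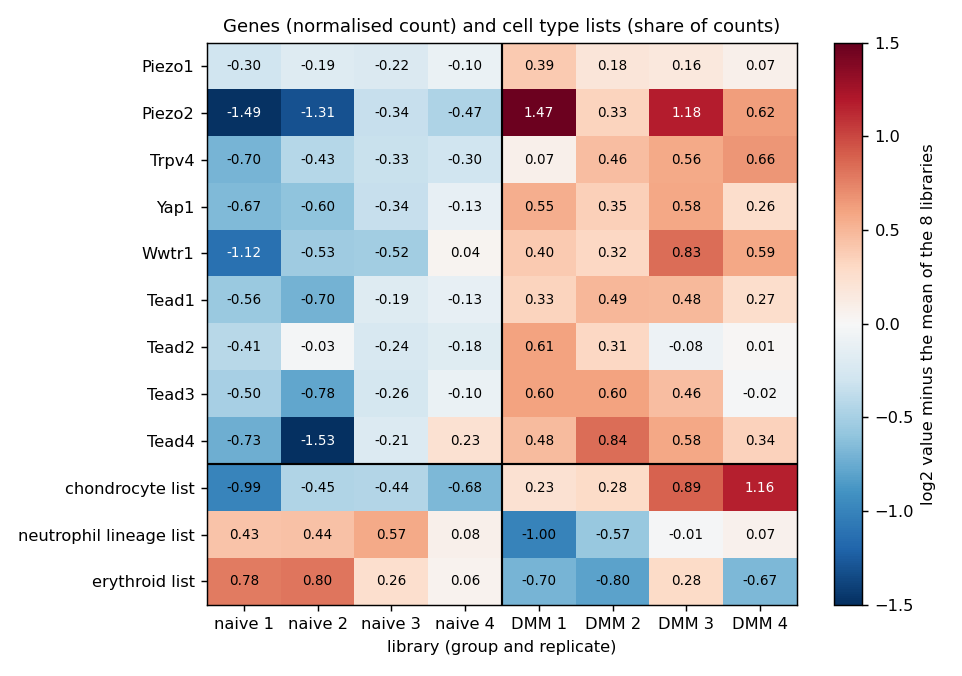
Log2 value minus the mean of the 8 libraries (colour, with the value printed in each cell) for the normalised counts of the 9 genes and for the shares of counts of 3 cell type lists, in each naive and DMM library. Piezo2 has the widest range, from -1.49 in naive 1 to 1.47 in DMM 1, and the chondrocyte list is below 0 in every naive library and above 0 in every DMM library.

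For the 5 called genes whose mean normalised count reached 100, the transcripts with the most similar pattern over the 8 libraries were found among 11014 genes. The measure was the root mean square difference of log2(normalised count + 1), each gene centred on its own mean. For Piezo2 these were Col18a1 (0.163) and Col15a1 (0.207), which encode basement membrane collagens. Col15a1 had 823 ± 256 normalised counts in the naive group and 2911 ± 681 in the DMM group (SD, n = 4). Trpv4 was closest to Spry4 (0.0707) and Loxl3 (0.0875). Yap1 was closest to Rbfox2 (0.0448) and Pdzrn3 (0.0570), Wwtr1 to Sulf1 (0.117) and Sertad4 (0.123), and Tead1 to Stard13 (0.0731) and Arhgap29 (0.0751). The differences were smallest for the neighbours of Yap1 and largest for those of Piezo2. The measure was not scaled to each gene's own range, which was widest for Piezo2, so it does not rank how closely neighbours tracked.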

How the data were processed

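RNA-seq of medial knee cartilage from 4 naive and 4 DMM mice was analysed from a deposited table of estimated counts. According to the methods of the study the authors trimmed reads with Trimmomatic, pseudo-aligned them to the mouse GRCm38 transcriptome with Kallisto and summarised transcripts to genes with tximport. The labels give GRCh38, a human build, and another library kit than the methods, and neither difference was resolved. Use of strand was not stated. Kallisto divides reads that fit several transcripts, so 39.2% of the values were not whole, and the expected (estimated) counts the authors deposited were rounded before testing.

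Genes were tested over the whole table by the Wald test of DESeq2 (version 1.42.0, R version 4.3.3), as the study names it, with median-of-ratios factors, default filters, unshrunken fold changes and no covariates. The p-values were adjusted by Benjamini-Hochberg over 17760 genes. edgeR version 4.0.16 and limma version 3.58.1 served as alternatives. Marker lists were compared by a two-sided exact permutation test over 70 assignments. Positions, lengths and 31-base words came from GENCODE vM21, in which a symbol was found for 48855 identifiers.

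The members and all lists were chosen with earlier results of these data known. The naming rule took the 9 genes, the 5 called genes of smallest adjusted p in each of 4 pathway lists, all called Hippo and target genes, and the 2 most similar patterns. Replicate numbers did not mark shared animals, and no pairing was used. The scripts were tested on simulated data. Alternatives were other tests, scalings, filters and fold thresholds, a covariate for neutrophil and erythroid transcripts, a block for the replicate number, other gene lengths and leaving out each library. At these depths a gene such as Tead4, with at most 39 estimated counts, has a wide interval. Intervals and tests measure the spread between mice. Some single genes of the marker lists are not reported here.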

Additional observations from a re-analysis of the deposited data

Results flagged for a closer look

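In 130 groups of 4 libraries (the genes and shares reported, in naive or DMM), 7 had a library whose gap to its nearest neighbour relative to the group's range exceeded the 95% critical value of Dixon's test. Chance gives about 1 in 20, or 6.5 groups. Among the Teads, the Tead3 share of the summed Tead level in DMM 4 was 26.2%, below the 30.9 to 31.2% of the other 3 DMM libraries.

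Ccn1 in naive 2 was 372.5 normalised counts, below the 423.0 to 429.2 of the other naive libraries. Arhgef17 in naive 4 was 698.4, above 522.3 to 532.1. Gadd45a in DMM 3 was 465.9, above 328.5 to 345.0, and Mob1b in naive 3 was 811.3, below 846.9 to 851.4. The erythroid share of counts in DMM 3 was 1.26%, against 0.596 to 0.650% in the other DMM libraries, and the skeletal muscle share in DMM 1 was 0.0273%, against 0.00239 to 0.00418%.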

How the results depend on the processing

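All 9 channel, Yap and Tead genes kept a fold change above 0 under every alternative, leaving out a library included, except Tead2 with the neutrophil and erythroid covariate (-0.0589). That covariate was higher in every naive than in every DMM library, so it competes with the group, and with it called genes fell from 2429 to 148. The 7 members called became 6 with edgeR, 8 with the total count as size factor, 1 against a 1.5-fold null (Piezo2), 1 with the covariate (Trpv4, although Wwtr1 stayed at 1.02, Piezo2 at 1.29, Yap1 at 0.63 and Tead1 at 0.53, with Tead3 at 0.29 and Tead4 at 0.28) and 6 to 7 when a library was left out. Under the 1.5-fold null the Hippo, target, channel and actin counts of 8, 11, 6 and 2 became 0, 2, 0 and 0 (94 genes in all), with the covariate 0, 1, 2 and 0, and when a library was left out 7 to 9, 9 to 11, 5 to 7 and 1 to 4. On the adjusted p alone the Hippo count was 15, the actin count 7 and the count of all genes 4010. Ccn2 turned to -0.00399 with the covariate and Axl to -0.0227 without DMM 3 (-0.0227 to 0.192 over the libraries left out). Scaling by total count moved the median over genes averaging 10 counts or more from -0.01 to 0.14 and the share of calls that were higher from 56.7 to 80.6%, with all 9 genes still higher and Gadd45a, Trpc6 and Myl9 no longer called. A block for the replicate number, whose same-numbered libraries had deviation correlations of -0.181 to 0.098, gave 6 members called and lost Tead4 and Ajuba. It paired no animals.

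With merged exons the naive and DMM levels per kilobase were 171.6 and 227.2 for Piezo1, 52.4 and 97.3 for Trpv4, 37.1 and 67.5 for Yap1, 23.7 and 40.5 for Tead1, 17.6 and 24.1 for Tead2 and 9.92 and 17.7 for Tead3, and 20.5 in DMM for Piezo2. The shares became 72.0 and 74.6% for Wwtr1, 42.5 and 44.7% for Tead1, 17.8 and 19.3% for Tead3, and 9.74% in DMM for Tead4. With plain counts they were 65.7 and 67.5% for Tead1, 17.7 and 14.1% for Tead2, 13.6 and 14.4% for Tead3, 3.05 and 3.91% for Tead4, and 13.2% in DMM for Piezo2 within the Piezo pair.

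Leaving out a library gave DMM minus naive differences in list share, in percentage points, of 0.456 to 0.668 for chondrocytes, -0.532 to -0.365 for the neutrophil lineage, 0.0276 to 0.0503 for osteoclasts, 0.00228 to 0.00609 for macrophages, 0.00576 to 0.00833 for endothelium, -0.000500 to 0.00781 for skeletal muscle (negative without DMM 1) and 0.0117 to 0.0190 for synovial fibroblasts. The unadjusted exact p then ran from 0.0286 to 0.0857 for chondrocytes and endothelium, to 0.0571 for the neutrophil lineage, to 0.257 for osteoclasts, to 0.429 for macrophages and to 0.143 for synovial fibroblasts. Without the most abundant identifier in the total, the macrophage difference was -0.00104.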
